A study of Mus musculus with 16 samples.

Results

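Potassium channel genes were followed across 4 populations of colonic cells sorted from Gli1CreERT2-ZsGreen mice. The members were all array probe sets whose only gene symbol began with Kcn, which gave 141 probe sets of 45141 on the array and 77 genes of 17097 named genes. Of the 77 genes, 28 encode voltage-gated subunits, 15 auxiliary subunits, 15 inward rectifiers, 9 channels of the 2-pore class and 7 calcium- or sodium-activated channels, and 3 are non-coding transcripts. A gene with several probe sets was represented by the probe set with the highest mean log2 signal, and 39 of the 77 genes had more than 1.

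The animals were on a C57BL/6 background and carried a tamoxifen-inducible Cre driven from Gli1 together with a ZsGreen reporter. Every mouse had 1 mg of tamoxifen injected on each of 5 consecutive days and was killed on day 6, so that no untreated or Cre-free group is among the samples. Age is not given in the labels. Colonic cells gated as Epcam-, CD45-, CD31- and gp38+ were divided into Sca1+ cells with high reporter signal (Sca1+Gli1ZsGreenhigh, here ZsGreen-high), Sca1+ cells with dim signal (Sca1+Gli1ZsGreendim, ZsGreen-dim), Sca1+ cells without it (Sca1+Gli1ZsGreen-, ZsGreen-negative) and Sca1- cells without it (Sca1-Gli1ZsGreen-, here Sca1- cells). Each of the 4 populations was taken from the same 4 mice by label, which gave 16 arrays, each made from 2 ng of RNA. ZsGreen marks cells in which Cre acted and their descendants, so its brightness is not a direct reading of Gli1 RNA.

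Potassium channels let potassium leave or enter a cell and thereby set its resting voltage and end its electrical activity. In the wall of the colon they do different work in different cells. Smooth muscle uses large-conductance calcium-activated channels to limit contraction, interstitial cells and glia use small-conductance and inwardly rectifying channels, and epithelial cells use basolateral channels to drive the secretion of chloride and fluid. Pore-forming subunits carry the current, and auxiliary subunits of the Kcne, Kcnip, Kcnab and Kcnmb families change how the pore opens or where it sits in the cell.

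Signals are array brightness recovered from deposited standardized scores, so they have no molar unit and levels of different genes are not set against each other. Median signals of the 16 arrays lay between 661 and 686, and the highest of 23 nonspecific control probe sets, taken here as the background of an array, lay between 234 and 488. Gli1 signals were 1961 to 2978 on the 8 ZsGreen-high and ZsGreen-dim arrays and 684 to 1545 on the other 8. The gate genes did not all follow the sort. Epcam, the epithelial adhesion molecule used for exclusion, read 1698 to 6869 in ZsGreen-high, 12855 to 20560 in ZsGreen-negative and 10080 to 21786 in Sca1- cells. In the same order Pdpn, which encodes gp38, read 5982 to 8788, 2828 to 5417 and 1590 to 3878. Pecam1, which encodes CD31, read 790 to 1111, 2882 to 5043 and 2570 to 7099. Ptprc, which encodes CD45, read 331 to 620, 349 to 905 and 679 to 1166. Transcripts linked to sex set mouse 2 apart. Its ZsGreen-high and ZsGreen-dim arrays had low Xist (487 and 424) and high Eif2s3y (3111 and 3095), while its ZsGreen-negative and Sca1- arrays had high Xist (18116 and 19209) and low Eif2s3y (146 and 197). The arrays labelled mouse 2 therefore go against being 1 animal. In the 4 comparisons of neighbouring gates or reporter levels, calls of the channel genes' main probe sets that were lost without them are stated. For the 2 comparisons of reporter-bearing with Sca1- cells the counts without them are given, and not every lost call is named. By the same transcripts mouse 1 was male-type and mice 3 and 4 female-type on all their arrays. ZsGreen-high and ZsGreen-dim cells thus had 2 male-type and 2 female-type arrays each, and ZsGreen-negative and Sca1- cells 1 and 3, the array of mouse 1 being the male-type one. The part of sex in the differences was not tested. Ly6a, which encodes Sca1, was not analysed here, so the Sca1 gate has no check in the RNA. No scan date or slide is given in the sources used here, and p-values measure the spread between 4 arrays per population.

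In an F test over the 4 populations (limma, adjusted p under 0.05 over all 45037 non-control probe sets), 27 of the 77 genes differed. That is a share of 35.1% of the potassium channel genes, beside 31.6% of all genes. Without the arrays of mouse 2, 17 of the 77 differed, beside 2353 of all 17097 genes. A total of 31 genes passed in at least 1 of 6 pairwise comparisons, which is 31 of 77 beside 41.0% of all genes. Among these 31, the Sca1- population had the highest mean in 19, ZsGreen-high cells in 6, ZsGreen-negative cells in 4 and ZsGreen-dim cells in 2. Of the 7003 genes of the whole array that passed, Sca1- cells had the highest mean in 29.3% and ZsGreen-high cells in 50.05%. This order rests on equal array medians. Scaled to the hybridization controls, Sca1- cells and ZsGreen-high cells had the highest mean in 13 each of the 31. Of the 7003, Sca1- cells then had it in 14.9% and ZsGreen-high cells in 66.8%. The signal was above background on all 4 arrays of at least 1 population for 56 genes and on all 16 arrays for 31 genes, and it was at or below background on all 16 arrays for 12. Of the genes that passed and were highest in Sca1- cells, Kcnj3 was at background on all 16 arrays. Kcna3, Kcnj12 and Kcnn2, also among them, were above background on all 4 arrays of no population. These genes are named after their values were seen. All 9 of the 2-pore channels were above background in a population, as were 19 of 28 voltage-gated subunits, 11 of 15 inward rectifiers, 10 of 15 auxiliary subunits and 5 of 7 calcium- or sodium-activated channels.

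**Figure D1:**
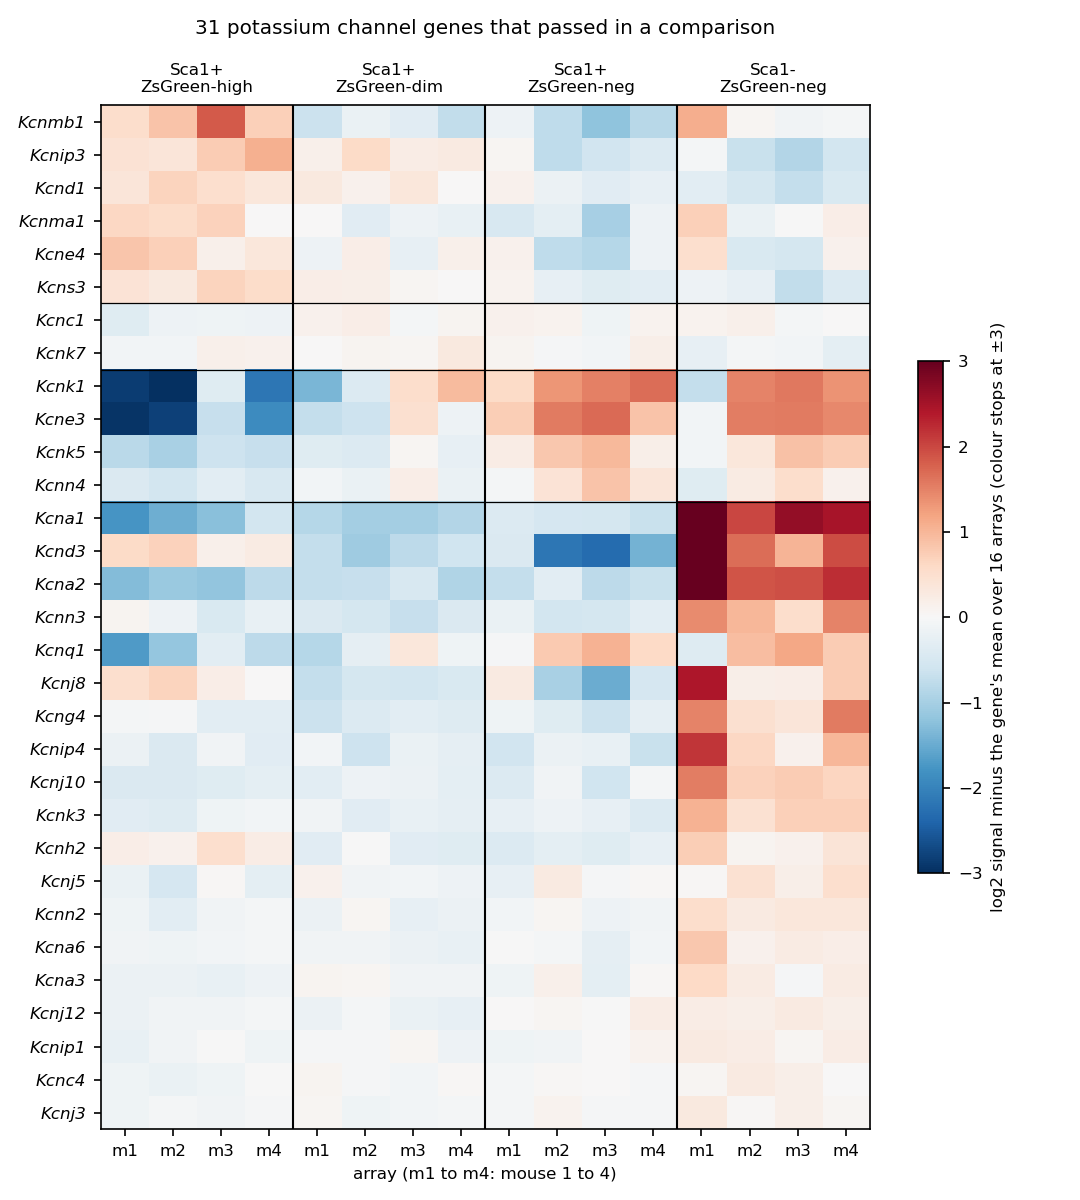
Log2 signal of each of the 31 genes that passed in a comparison, minus the gene's mean over the 16 arrays, with 1 column per array and 1 row per gene, grouped by the population with the highest mean (red is above the gene's mean, blue below, and the colour stops at 3 log2 units). With equal array medians the bottom block of 19 genes has its highest population mean in Sca1- cells, and the Sca1- array of mouse 1 is the reddest for Kcna1, Kcna2 and Kcnd3. Not every gene of the block is reddest on all 4 Sca1- arrays. Kcnq1 read 840 on the Sca1- array of mouse 1 and 2244 on the ZsGreen-negative array of mouse 3.

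The comparison of Sca1+ with Sca1- cells, both without reporter, asks which channels follow Sca1 alone. All 10 potassium channel genes that passed were higher in Sca1- cells (13.0% of 77, beside 1.20% of all genes in that direction, 1.22% in the other and 2.42% in either) and none was higher in Sca1+ cells. They were led by the voltage-gated genes Kcnd3, Kcna1 and Kcna2, at 11.7-fold, 9.57-fold and at least 6.77-fold, followed by the calcium-activated channel Kcnn3 at 2.84-fold. The median difference (Sca1+ minus Sca1-, log2) was -0.02 over the 77 genes, beside -0.00068 over all genes, so that most members differed little. With the arrays of mouse 4 left out 6 of the 77 genes passed, beside 123 of all 17097 genes. With those of mouse 2 left out 9 did, beside 152 of all genes.

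Kcna1 and Kcna2 encode related delayed-rectifier subunits that can share a tetramer and are best known from axons. Kcna1 signals in Sca1- cells were 28057, 8164, 12667 and 11275 in mice 1 to 4, against 1528, 1419, 1399 and 1285 in ZsGreen-negative cells. The ranges did not overlap, and the array of mouse 1 was the highest. The difference was -3.26 ± 0.30 (log2, SE, Sca1+ minus Sca1-, adjusted p = 2.21e-05) and lay between -4.20 and -2.52 in the 4 mice. Of 3 other Kcna1 probe sets, 2 fell in Sca1+ cells (-3.61 and -3.62), while the remaining one differed by 0.12 ± 0.09 and did not pass (adjusted p = 0.728).

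Kcna2 signals were 6044, 1834, 1894 and 2273 in Sca1- cells and 299, 398, 284 and 311 in ZsGreen-negative cells, all 4 of the latter at or below background. Sca1- cells were therefore at least 6.77-fold higher, a bound set against each array's background, and the fitted difference was -3.04 ± 0.28 (adjusted p = 2.63e-05). Both other probe sets of Kcna2 passed in the same direction. Without the Sca1- array of mouse 1 the fitted differences were -2.91 for Kcna1 and -2.64 for Kcna2, and both still passed.

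Kcnd3, the pore of a rapidly inactivating A-type current, was higher in the Sca1- array of every mouse. Its signals were 20453, 7142, 4524 and 8670 in Sca1- cells and 1655, 496, 449 and 828 in ZsGreen-negative cells. The lowest Sca1- array stood above the highest ZsGreen-negative array, and within each mouse the difference was nearly the same, from -3.85 to -3.33. The mean difference was -3.55 ± 0.41 (adjusted p = 0.000202), and all 3 other Kcnd3 probe sets passed in the same direction with smaller sizes (between -2.19 and -0.95).

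Kcnn3, a small-conductance channel opened by intracellular calcium that interstitial cells of the gut use in responses to purines, was well above background on every array. Signals in Sca1- cells were 18150, 13447, 9721 and 18910, and those in ZsGreen-negative cells were 5900, 4602, 4707 and 5426. The populations did not overlap, and the difference was -1.50 ± 0.18 (adjusted p = 0.000219). The 3 Sca1+ populations overlapped with each other for this gene. Kcnn2, a second small-conductance channel, named here after its values were seen, differed by -0.44 with its ZsGreen-negative arrays at background (at least 1.04-fold, adjusted p = 0.0107, and 0.149 with arrays scaled to the hybridization controls).

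Promoter sequence is shown for 3 of the genes that were higher together in Sca1- cells, so that their base composition can be compared. Each is the 250 bases before the RefSeq start of the gene on GRCm38.p6, written 5′ to 3′ on the gene's strand, with every CpG in capitals. Kcna2 lies at chr3:107101317-107101566 (plus strand), Kcnd3 at chr3:105451640-105451889 (plus strand) and Kcnn3 at chr3:89519914-89520163 (plus strand).
Kcna2: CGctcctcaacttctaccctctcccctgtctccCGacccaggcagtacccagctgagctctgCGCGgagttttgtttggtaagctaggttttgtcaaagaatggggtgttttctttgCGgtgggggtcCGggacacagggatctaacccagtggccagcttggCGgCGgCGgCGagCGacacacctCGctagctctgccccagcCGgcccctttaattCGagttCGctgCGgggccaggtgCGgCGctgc
Kcnd3: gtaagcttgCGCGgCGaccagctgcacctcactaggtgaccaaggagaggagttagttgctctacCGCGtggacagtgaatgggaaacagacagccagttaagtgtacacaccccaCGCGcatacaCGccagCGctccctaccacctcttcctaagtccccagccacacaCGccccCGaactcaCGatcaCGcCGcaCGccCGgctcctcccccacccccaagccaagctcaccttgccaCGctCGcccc
Kcnn3: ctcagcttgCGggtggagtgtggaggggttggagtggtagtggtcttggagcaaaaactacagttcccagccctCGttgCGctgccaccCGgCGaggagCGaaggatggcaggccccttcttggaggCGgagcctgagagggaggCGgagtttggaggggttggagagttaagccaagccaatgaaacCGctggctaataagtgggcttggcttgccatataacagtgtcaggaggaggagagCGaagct
The windows of Kcna2 and Kcnd3 hold 18 CpGs each and that of Kcnn3 holds 10, beside a median of 6 over 32851 RefSeq promoter windows of the same length. Their GC content was 62.4%, 62.8% and 58.8%, beside a median of 52.4%. The letters TATAAA were in none of the 3 on either strand. They were in 3 of 84 windows of 59 potassium channel genes and in 12.4% of all windows. The letters ACAAAG, a core recognized by Sox factors, were in 10 of the 84 windows and 16.5% of all windows, again in none of these 3.

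The auxiliary subunit Kcnip4, a calcium-binding partner of Kcnd channels, was also higher in Sca1- cells. Signals were 3204, 1114, 791 and 1449 there and 484, 639, 621 and 453 in ZsGreen-negative cells. Mouse 1 stood far above the other Sca1- arrays although no values overlapped, and the difference was -1.39 ± 0.30 (adjusted p = 0.0218). The call was lost without mouse 2 or without mouse 4 (adjusted p = 0.103 and 0.306) and on leaving out any 1 of 3 single arrays.

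The inward rectifier Kcnj10, through which glia take up potassium, read 1103, 615, 644 and 596 in Sca1- cells and 287, 355, 251 and 368 in ZsGreen-negative cells. No array overlapped, and the difference was -1.20 ± 0.17 (adjusted p = 0.000885). Kcnj8, the pore of the ATP-sensitive channel of vascular smooth muscle and pericytes, read 3282, 700, 705 and 1049 against 743, 316, 220 and 437. Mouse 1 was highest in both populations, the ranges overlapped, and the difference of -1.56 ± 0.42 did not pass (adjusted p = 0.0749). It was lower in Sca1+ cells in all 4 mice and passed once the mouse was a block (adjusted p = 0.0255), as did Kcna6, a voltage-gated gene named after its values were seen (-0.45, adjusted p = 0.0356 with the block and 0.0544 without). With the block but without mouse 2, neither passed (adjusted p = 0.0654 and 0.0629).

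The acid-sensitive 2-pore channel Kcnk3, a background or leak channel, read 3145, 2105, 2512 and 2497 in Sca1- cells and 1297, 1364, 1293 and 1148 in ZsGreen-negative cells. The difference of -0.996 ± 0.108 (adjusted p = 0.000108) was a 1.99-fold change, and all 3 Sca1+ populations had means between 1276 and 1308. Kcng4, a silent subunit that modifies other pores, was at background in ZsGreen-negative cells and at least 1.86-fold higher in Sca1- cells (adjusted p = 0.0044, and 0.0881 without mouse 4). Kcnh2, the pore of the rapid delayed rectifier of heart, was at least 1.23-fold higher (adjusted p = 0.0116, and 0.167 without mouse 4) and lost its call without mouse 1 too.

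Markers of other cell types moved in the same comparison. Of 7 measured markers of interstitial cells of Cajal, the pacemaker cells of the gut, 4 were higher in Sca1- cells, led by Kit (-2.78) and Prkcq (-2.42). The mean log2 signal of that list was 12.23 to 12.73 in Sca1- cells and 11.15 to 11.58 in ZsGreen-negative cells. Of 11 glial and neuronal markers 3 were higher in Sca1- cells, the glial genes Gfap (-1.53), S100b (-1.49) and Sox10 (-0.67), and S100b was at background in all 3 Sca1+ populations. The list means were 9.18 to 9.57 and 8.76 to 9.39. Of 8 pericyte markers, Rgs5 was higher (-2.18) and Steap4 lower (1.07) in Sca1- cells, and the list means were 10.72 to 11.27 and 10.53 to 10.76. Of 14 smooth muscle markers, Actg2 (-1.81) and Hhip (-1.69) were higher in Sca1- cells (list median -0.51), and the list means were 11.34 to 12.34 and 10.61 to 11.67. Higher in Sca1+ cells were 2 of 12 pan-fibroblast markers (list means 13.82 to 14.27 against 13.22 to 14.13 in Sca1- cells) and 1 of 12 markers of PDGFRA-high subepithelial fibroblasts (9.98 to 10.70 against 9.78 to 10.32). None of the 19 measured epithelial markers passed (median difference 0.02), with list means of 13.34 to 14.35 and 13.59 to 14.25. In sorted bulk samples, more cells of a type and more RNA per cell cannot be told apart, and the part of these markers in the channel differences was not tested. With that epithelial mean added to the fit as a covariate, 12 potassium channel genes passed here, beside 601 of all 17097 genes.

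**Figure D2:**
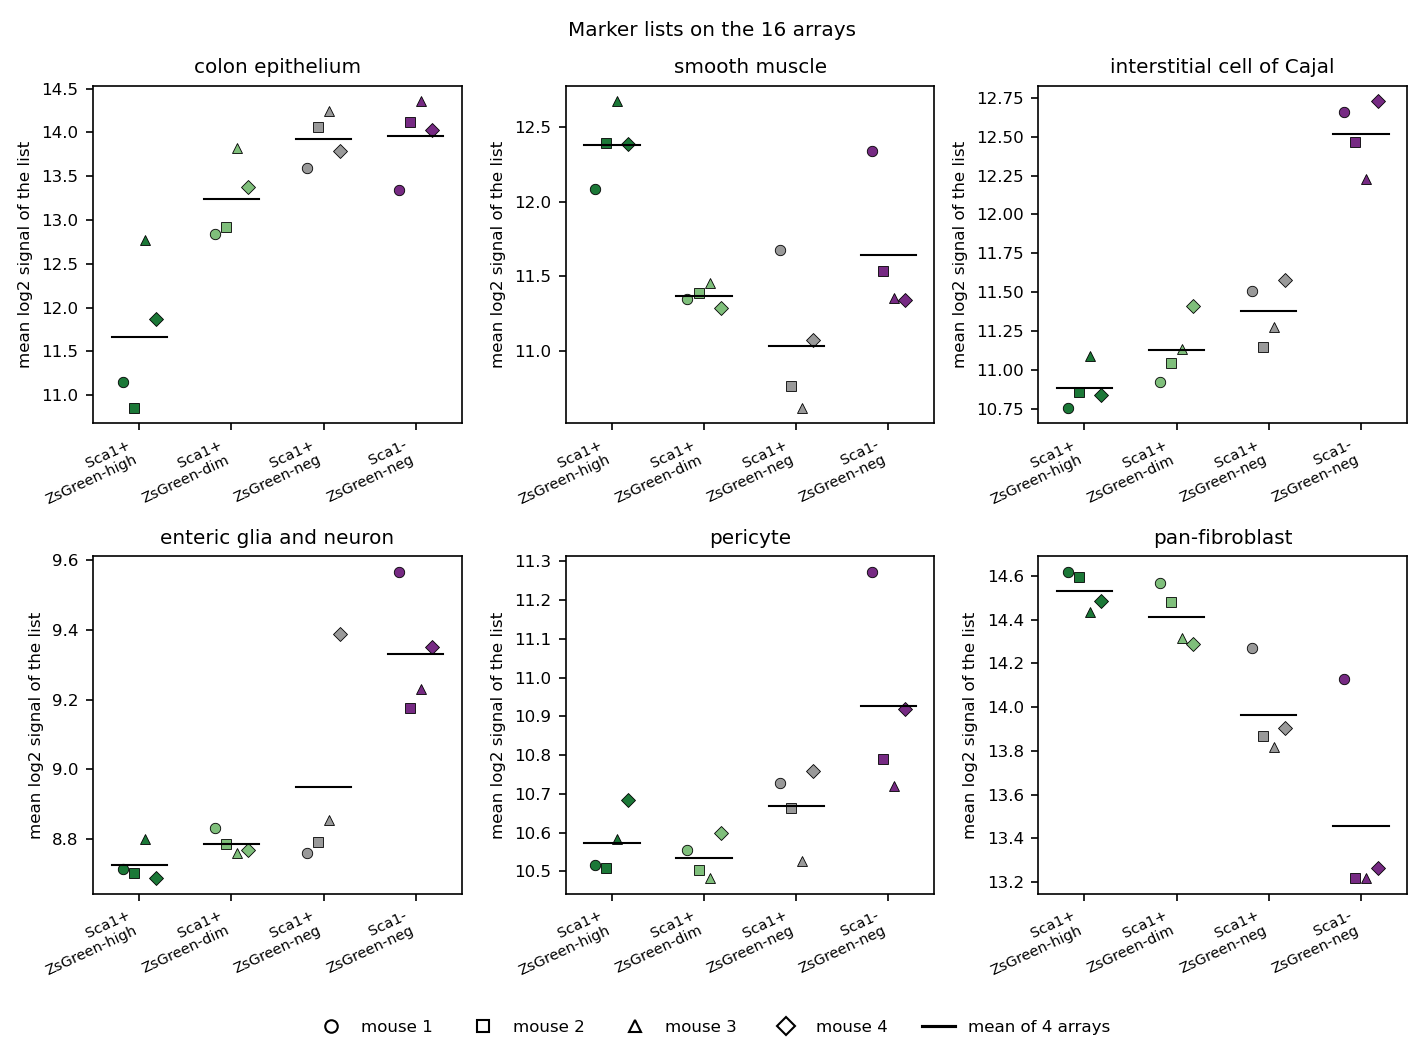
Mean log2 signal of 6 marker lists on each array, by sorted population, with 1 symbol per mouse and a line at the mean of 4 arrays. Epithelial markers are lowest in ZsGreen-high cells, smooth muscle markers highest there, and markers of interstitial cells of Cajal highest in Sca1- cells. Mouse 1 is the highest Sca1- array for the smooth muscle, glial, pericyte and pan-fibroblast lists.

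Within Sca1+ cells, the comparison of ZsGreen-high with ZsGreen-negative cells asks what goes with a strong Gli1 reporter. Of the 77 potassium channel genes, 8 rose and 7 fell in ZsGreen-high cells (beside 16.5% and 13.5% of all genes). The members that rose were the A-type pores Kcnd3 and Kcnd1, the BK channel pair Kcnmb1 and Kcnma1, the auxiliary subunits Kcnip3 and Kcne4, the silent subunit Kcns3 and Kcnh2. Those that fell furthest were Kcnk1 and Kcne3 at 10.5-fold and 9.79-fold, then Kcnq1, Kcnk5 and Kcnn4. As a share, 15 of 77 genes (19.5%) against 30.0% of all genes is no excess of potassium channel genes. The count was 9 without the arrays of mouse 2, beside 2425 of all 17097 genes. In that fit Kcnd3, Kcne4, Kcnq1, Kcnn4, Kcnc1 and Kcnj12 no longer passed.

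The split of directions rests on the assumption that arrays have equal medians. Scaled to the hybridization controls instead, 50 potassium channel genes were higher and 4 lower in place of 8 and 7. Of all 17097 genes 10450 were higher and 906 lower, and their median moved to 0.38. Relative to that median the order of the genes was unchanged, since the shift adds the same amount to every gene. Kcnc1 and Kcnj12, the weakest of the 15 and named after their values were seen, turned from -0.25 and -0.18 to 0.13 and 0.20. For Kcnc1, none of 3 other probe sets shared its direction, and Kcnj12 lost its call with the mouse as a block (adjusted p = 0.0601). Without mouse 2 their adjusted p-values were 0.112 and 0.139.

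**Figure D3:**
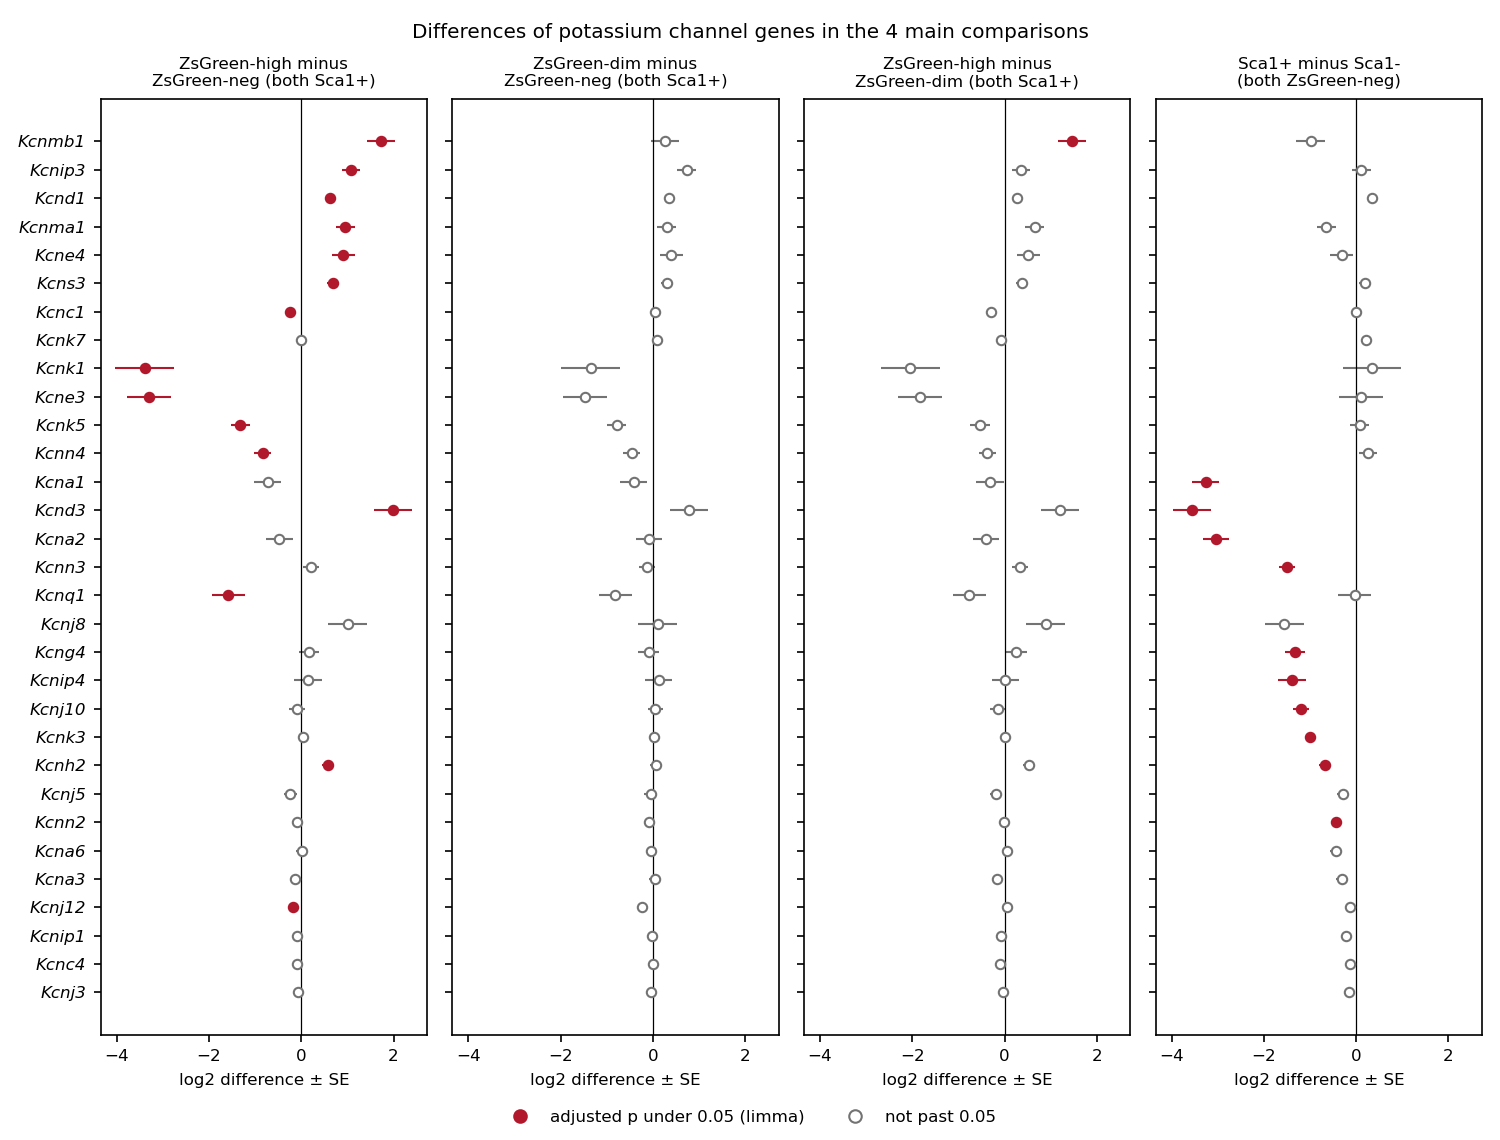
Log2 difference with its SE for the 31 genes in each of the 4 main comparisons, with filled red points where the adjusted p (limma) was under 0.05. Red points stand on both sides of 0 for ZsGreen-high against ZsGreen-negative cells and only left of 0 for Sca1+ against Sca1- cells, where they mark genes higher in Sca1- cells.

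Kcnma1 is the pore of the large-conductance calcium-activated (BK) channel and Kcnmb1 is its smooth muscle auxiliary subunit, which raises its sensitivity to calcium. Kcnmb1 signals were 1127, 1403, 2776 and 1277 in ZsGreen-high cells, 498, 679, 618 and 464 in ZsGreen-dim cells and 697, 459, 337 and 435 in ZsGreen-negative cells. ZsGreen-high arrays lay above all arrays of the other Sca1+ populations, with mouse 3 the highest. The difference from ZsGreen-negative cells was 1.73 ± 0.31 (adjusted p = 0.00113), and the second Kcnmb1 probe set rose as well, by 0.34 (adjusted p = 0.0335).

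Kcnma1 signals were 1990, 1894, 2086 and 1304 in ZsGreen-high cells and 922, 1056, 647 and 1149 in ZsGreen-negative cells. The ranges did not overlap, though the lowest ZsGreen-high array and the highest ZsGreen-negative array, both of mouse 4, were close. The difference was 0.96 ± 0.20 (adjusted p = 0.00344). The second Kcnma1 probe set differed by 0.22 and did not pass (adjusted p = 0.154). In Sca1- cells Kcnmb1 read 1656, 811, 720 and 751, above ZsGreen-negative cells by 0.99 ± 0.31 without passing (adjusted p = 0.133). Its second probe set passed there (-1.18, adjusted p = 2.63e-05). The Kcnmb1 probe sets ordered ZsGreen-high and Sca1- cells differently. At the main one the mean was higher in ZsGreen-high cells, with overlapping ranges. At the second it was higher in Sca1- cells (855.75 against 477), without overlap. Kcnma1 had a mean of 1488 in Sca1- cells, and its signals there overlapped with those in ZsGreen-high cells.

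The 250 bases before the start of Kcnmb1 (GRCm38.p6, chr11:33962763-33963012, plus strand) are shown because the gene stood apart from the preceding windows in composition. CpGs are again in capitals.
Kcnmb1: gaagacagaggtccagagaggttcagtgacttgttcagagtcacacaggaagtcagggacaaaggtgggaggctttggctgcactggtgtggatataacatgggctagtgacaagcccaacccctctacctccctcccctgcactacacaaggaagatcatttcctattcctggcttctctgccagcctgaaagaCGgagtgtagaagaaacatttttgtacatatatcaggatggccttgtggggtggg
The window holds 1 CpG and 50.8% GC. A match to ACAAAG lies at bases -192 to -187 from the start, and the letters of the CArG box, the element bound by serum response factor, were in no potassium channel window and in 1.47% of all windows. The Gli motif GACCACCCA was also in none of the 84 windows and in 0.225% of all windows, both strands searched.

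The A-type pore genes Kcnd3 and Kcnd1 both rose, and of the Kcnip partners Kcnip3 did while the others did not pass. Kcnd3 signals were 3287, 3584, 2479 and 2623 in ZsGreen-high cells, well above the ZsGreen-negative values given before, and the difference was 1.99 ± 0.41 (adjusted p = 0.00278, and 0.0569 without mouse 2). Of its 3 other probe sets 1 passed. Kcnd1 signals were 1546, 1907, 1701 and 1537 in ZsGreen-high, 1474, 1310, 1515 and 1223 in ZsGreen-dim, 1325, 1063, 957 and 1018 in ZsGreen-negative and 969, 841, 737 and 880 in Sca1- cells. Its means thus ran down from ZsGreen-high to Sca1- cells, and ZsGreen-high cells differed from ZsGreen-negative cells by 0.62 ± 0.11 (adjusted p = 0.00136). ZsGreen-negative cells overlapped with ZsGreen-dim cells on one side and Sca1- cells on the other, and neither pair passed.

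Kcnip3 encodes a calcium sensor that binds Kcnd pores and can also act as a transcriptional repressor. Its signals were 754, 714, 943 and 1153 in ZsGreen-high cells, 619, 825, 652 and 665 in ZsGreen-dim cells and 576, 328, 371 and 416 in ZsGreen-negative cells. Both reporter-bearing populations stood above every ZsGreen-negative array, with a difference of 1.08 ± 0.20 for ZsGreen-high cells (adjusted p = 0.00137). The ZsGreen-negative arrays of mice 2 and 3 lay below their background (488 and 396). The second Kcnip3 probe set shared the direction without passing. Kcne4, an auxiliary subunit that inhibits several voltage-gated pores, read 3433, 3172, 2155 and 2446 against 2111, 1151, 1077 and 1756. It rose by 0.91 ± 0.25 (adjusted p = 0.0148), and that call was lost without mouse 2 (adjusted p = 0.140), without mouse 4 and without any 1 of 3 single arrays.

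Kcns3, a silent subunit that assembles with other voltage-gated pores, read 956, 871, 1128 and 1044 in ZsGreen-high cells and 770, 601, 558 and 577 in ZsGreen-negative cells. It rose by 0.68 ± 0.13 (adjusted p = 0.00165) with no overlap. Kcnh2 read 432, 410, 531 and 438 in ZsGreen-high cells, and as ZsGreen-negative arrays were at background it was at least 1.16-fold higher (adjusted p = 0.00433). Kcnj8 was higher by 1.00 ± 0.42 and passed only with the mouse as a block (adjusted p = 0.0434, 0.0956 without it, and 0.194 with it but without mouse 2). Kcnk2, a mechanosensitive 2-pore channel named after its values were seen, likewise passed only with the block (0.86, adjusted p = 0.0225, and 0.0119 without mouse 2).

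The genes that fell in ZsGreen-high cells include those of the epithelial secretory pathway. Kcnq1 is a voltage-gated pore that, with the auxiliary subunit Kcne3, forms the basolateral channel supporting chloride secretion in colonic crypts. Kcne3 signals were 333, 367, 1579 and 683 in ZsGreen-high, 1548, 1643, 3558 and 2284 in ZsGreen-dim, 4225, 7541, 8227 and 4612 in ZsGreen-negative and 2415, 7410, 7466 and 6948 in Sca1- cells. ZsGreen-high arrays lay below all ZsGreen-negative arrays, ZsGreen-dim cells stood between, and mouse 3 was the highest array of the first 3 populations. The difference of ZsGreen-high from ZsGreen-negative cells was -3.29 ± 0.48 (adjusted p = 0.000393).

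Kcnq1 signals were 338, 488, 871 and 637 in ZsGreen-high cells and 1065, 1869, 2244 and 1658 in ZsGreen-negative cells. It fell by 1.58 ± 0.36 with no overlap (adjusted p = 0.00467, and 0.0690 without mouse 2). Under every mouse label the order of the populations was the same for Kcnq1 and Kcne3: ZsGreen-high below ZsGreen-dim below ZsGreen-negative. The arrays labelled mouse 2 go against being 1 animal, so under that label the order is not one within an animal. The calcium-activated Kcnn4, a second basolateral channel of the crypt, read 1216, 1116, 1328 and 1174 against 1572, 2190, 2970 and 2109. It fell by 0.84 ± 0.19 (adjusted p = 0.00433, 0.0622 without mouse 2, and 0.0731 scaled to the hybridization controls).

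Kcnk1, a weakly conducting 2-pore channel, had the largest difference of any member in this comparison. Its signals were 496, 415, 2735 and 789 in ZsGreen-high, 1363, 2669, 5090 and 6850 in ZsGreen-dim, 5317, 8811, 10062 and 11336 in ZsGreen-negative and 2165, 9919, 10688 and 9016 in Sca1- cells. No ZsGreen-high array reached a ZsGreen-negative one, although mouse 3 lay within the ZsGreen-dim range, and the difference was -3.39 ± 0.64 (adjusted p = 0.00155). Kcnk5, an alkaline-activated 2-pore channel found on the basolateral side of epithelia, read 427, 386, 486 and 466 against 881, 1306, 1471 and 853. It fell by 1.32 ± 0.21 with no overlap (adjusted p = 0.00061), and the second probe sets of Kcnk1 and Kcnk5 fell too.

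The window of Kcnk5 is given to set a gene that fell in ZsGreen-high cells beside those that were higher in Sca1- cells. It is the 250 bases before the gene's start at chr14:20181783-20182032 (GRCm38.p6, minus strand, written along the gene), with CpGs in capitals.
Kcnk5: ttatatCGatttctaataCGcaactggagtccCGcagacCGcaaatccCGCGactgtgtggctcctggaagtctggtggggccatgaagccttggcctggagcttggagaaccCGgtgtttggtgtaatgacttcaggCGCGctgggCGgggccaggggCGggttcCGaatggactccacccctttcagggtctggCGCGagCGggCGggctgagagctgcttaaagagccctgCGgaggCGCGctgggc
This window holds 19 CpGs and 62.8% GC, and the GC box GGGCGG occurs 3 times, at -106 to -101, -94 to -89 and -47 to -42. That motif was in 37 of 84 potassium channel windows and in 32.7% of all windows. In the windows shown, CpGs were thus frequent in Kcna2, Kcnd3, Kcnn3 and Kcnk5 and scarce in Kcnmb1. Windows not shown varied within each pattern. Among genes that fell in ZsGreen-high cells, the window of Kcnk1 holds 0 CpGs, that of Kcnn4 6 and those of Kcne3 3 and 10. Among genes higher in Sca1- cells they run from 4 in Kcng4 to 17 in Kcnj10. Among genes that rose in ZsGreen-high cells they run from 2 in a window of Kcnip3 to 31 in Kcnma1.

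**Figure D4:**
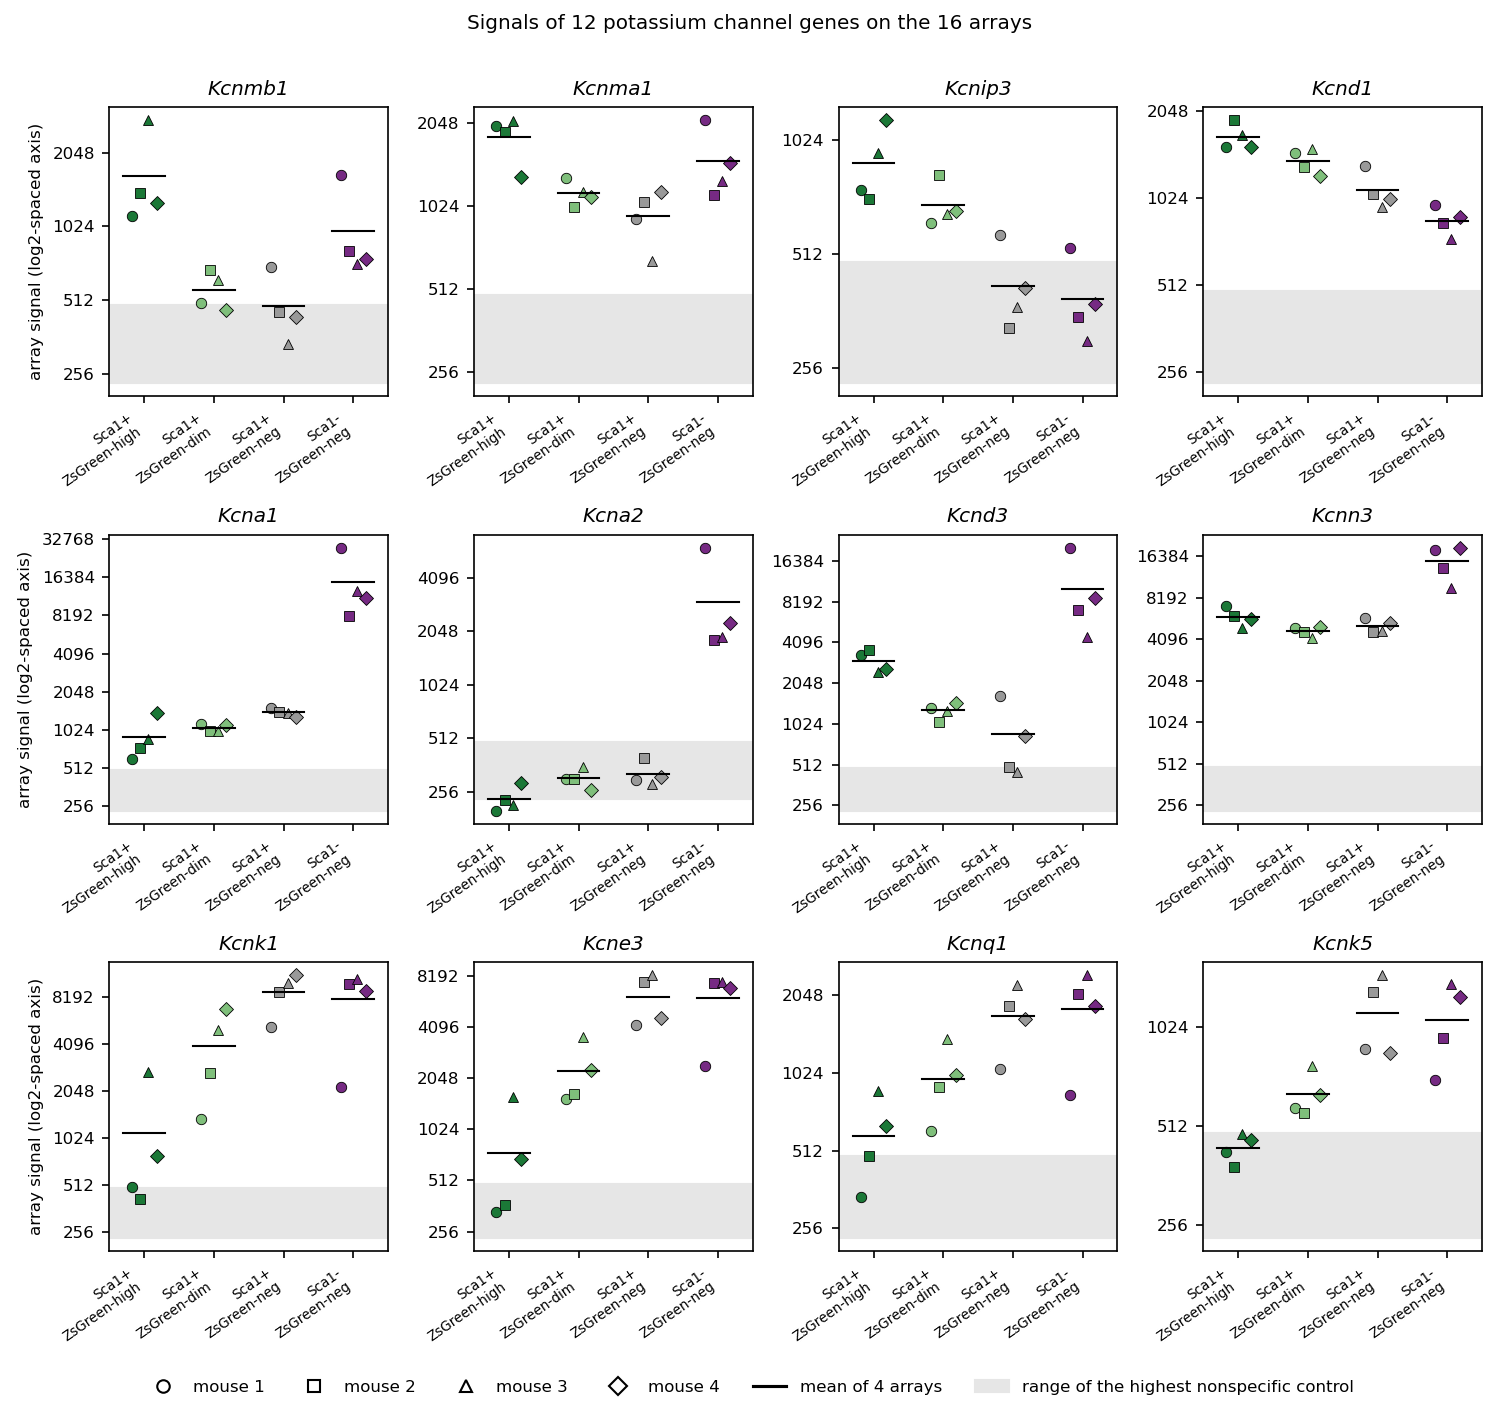
Array signals of 12 potassium channel genes by sorted population on a log2-spaced axis, with 1 symbol per mouse, a line at the mean of 4 arrays and a grey band for the range of the array background (234 to 488). The top row shows genes higher in ZsGreen-high than in ZsGreen-negative cells, the middle row genes higher in Sca1- cells and the bottom row genes lower in ZsGreen-high cells, where mouse 1 is the lowest Sca1- array.

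Epithelial transcripts moved with the genes that fell. All 19 measured epithelial markers were lower in ZsGreen-high than in ZsGreen-negative cells, with a median difference of -2.17, and their list means were 10.85 to 12.77 against 13.59 to 14.25. Cdh1, the epithelial cadherin, was far above background in every population, with its lowest signal, 2001, in ZsGreen-high cells. Smooth muscle markers moved with the genes that rose: 12 of 14 were higher in ZsGreen-high cells (median 1.44) and none lower, with list means of 12.08 to 12.67 against 10.61 to 11.67, while Des differed by -0.09. Also higher were 5 of 12 PDGFRA-high subepithelial fibroblast markers (median 0.78, list means 10.69 to 11.01 against 9.98 to 10.70) and 5 of 12 pan-fibroblast markers (median 0.49, 14.44 to 14.62 against 13.82 to 14.27), with none lower in either list. Endothelial markers were lower for 10 of 14 (list means 9.42 to 9.62 against 9.92 to 10.40) and leukocyte markers for 4 of 13 (9.17 to 9.55 against 9.58 to 9.96). With the mean of the epithelial list in the fit, no potassium channel gene passed and only 1 of all 17097 genes did, so that fit separates no group of channels from another. The part of these cell types in the channel differences was not tested.

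ZsGreen-dim cells lay between their neighbours for most of the genes above. Against ZsGreen-negative cells, none of the 77 genes passed (limma, 9 had an unadjusted p under 0.05), beside 1.11% of all genes. With the mouse as a block 8 of 77 passed, beside 2187 of all 17097 genes. Kcne3, Kcnk1, Kcnq1, Kcnk5, Kcnn4, Kcnk6 and Kcnj12 were lower in ZsGreen-dim cells and Kcnip3 higher, with differences from -1.47 for Kcne3 to 0.73 for Kcnip3. Kcnk6, another 2-pore channel, and Kcnj12 are named after their values were seen. Because the arrays of mouse 2 go against being 1 animal, the block was also fitted without them, and then only Kcne3 (-1.22, adjusted p = 0.0407) and Kcnq1 (-0.74, adjusted p = 0.0154) passed. In that fit 585 of all 17097 genes passed.

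Between ZsGreen-high and ZsGreen-dim cells only Kcnmb1 passed (1 of 77, beside 1.02% of all genes), at 1.46 ± 0.31 (adjusted p = 0.0444), higher in all 4 mice. This call was lost in 15 of 20 fits that left out a mouse or an array, and without mouse 2 the adjusted p was 0.274. With the mouse as a block 6 of 77 genes passed, beside 1105 of all 17097 genes. Kcnmb1 and Kcnd3 (1.21) were higher in ZsGreen-high cells, and Kcnk1 (-2.04), Kcne3 (-1.82), Kcnq1 (-0.77) and Kcnc1 (-0.29) lower. With the block but without mouse 2, 4 passed, namely Kcne3 (adjusted p = 0.00631), Kcnk1 (0.0315), Kcnq1 (0.00505) and Kcnh2, while Kcnmb1 (0.0567) did not. In that fit 839 of all 17097 genes passed. The 19 epithelial markers were lower for 7 and higher for none in that comparison, and smooth muscle markers were higher for 5 of 14.

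The comparisons of the reporter-bearing populations with Sca1- cells differ in both gates and share the Sca1- arrays. Against Sca1- cells, 3 genes were higher and 22 lower in ZsGreen-high cells (3.90% and 28.6%, beside 18.8% and 16.3% of all genes and 35.1% in either direction). The 22 include Kcnj3, at background on every array, whose other probe set did not share the direction. They also include Kcna3, Kcnj12 and Kcnn2, above background on all 4 arrays of no population. In ZsGreen-dim cells 4 were higher and 15 lower (5.19% and 19.5%, beside 7.63% and 5.61%, and 13.2% in either direction). With the mouse as a block Kcne4 (0.60, adjusted p = 0.0225) was added for ZsGreen-high cells (0.115 with the block but without mouse 2). For ZsGreen-dim cells Kcne3 (-1.37, adjusted p = 0.00579) and Kcnq1 (-0.85, adjusted p = 0.00036) were added, both also without mouse 2 (0.0228 and 0.0027), and the auxiliary subunit Kcnip1 was lost (adjusted p = 0.0558). Unblocked and without mouse 2, the counts were 18 for ZsGreen-high and 11 for ZsGreen-dim cells, beside 3657 and 601 of all 17097 genes. Kcna1 differed by -3.98 ± 0.30 in ZsGreen-high cells and by -3.67 ± 0.30 in ZsGreen-dim cells. These are larger sizes than in ZsGreen-negative cells, though Kcna1 did not pass among the Sca1+ populations (adjusted p from 0.0872 to 0.696). Kcnip3, Kcnd1 and Kcns3 were higher in both reporter-bearing populations, by 1.19, 0.97 and 0.86 in ZsGreen-high and by 0.84, 0.69 and 0.49 in ZsGreen-dim cells. Without mouse 2 all 3 still passed for ZsGreen-high cells, but for ZsGreen-dim cells Kcnip3 (adjusted p = 0.118) and Kcns3 (0.113) did not.

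Kcnd3 took a different course from Kcna1 and Kcna2. It was lowest in ZsGreen-negative cells, intermediate in ZsGreen-dim and ZsGreen-high cells and highest in Sca1- cells, so that it rose in ZsGreen-high over ZsGreen-negative cells and was still below Sca1- cells by 1.56 ± 0.41 (adjusted p = 0.00924, and 0.0784 without mouse 4). With arrays scaled to the hybridization controls, 44 potassium channel genes were higher and 12 lower in ZsGreen-high than in Sca1- cells. Of all 17097 genes 11437 were higher and 975 lower, and their median moved to 0.42. Of the 25 potassium channel genes that passed under equal medians, 5 with small differences changed sign under that scaling (Kcnc1, Kcnc4, Kcnip1, Kcnj12 and Kcnj3, named after their values were seen). None of the genes that passed for ZsGreen-negative or ZsGreen-dim against Sca1- cells changed sign.

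The remaining 46 potassium channel genes passed in no comparison, and 29 of them were above background on all 4 arrays of a population. Their largest difference between 2 populations had a median of 0.13 and reached 0.86 for Kcnk2, the only one above 0.5. Among the steady members, Kcnj11, the pore of the ATP-sensitive channel of pancreas and skeletal muscle, had population means between 3107 and 3334, and its differences lay between -0.10 and 0.11. Kcnh3, a voltage-gated gene, had means between 2074 and 2342. The non-coding antisense transcript Kcnq1ot1, which takes part in imprinting around Kcnq1, had means between 5348 and 6154 at its brightest probe set and did not pass. Another of its probe sets moved the other way, with means of 392.5 in ZsGreen-high and 842 in ZsGreen-negative cells (-1.04, adjusted p = 0.0386). How the array separates the strands of Kcnq1 and Kcnq1ot1 is not given in the sources used here.

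Other genes of these pathways were read from lists drawn up by function. Their counts are to be read against the shares of all genes given above, 16.5% higher and 13.5% lower for ZsGreen-high against ZsGreen-negative cells. Of 13 channel partners not named Kcn, 8 were measured and 3 passed. In ZsGreen-high against ZsGreen-negative cells Amigo1 (0.39) and Dpp6 (0.29), partners of Kcnb and Kcnd pores, rose, and Lrrc26, a BK partner in secretory epithelium, fell by 1.98. None passed between Sca1+ and Sca1- cells without reporter. Of 21 genes of colonic electrolyte transport 19 were measured, and 13 fell and 1 rose in ZsGreen-high cells. These included the goblet cell gene Clca1 (-3.09), the chloride channel Cftr (-2.24) and the anion exchanger Slc26a3 (-2.09), in the same direction as Kcne3, Kcnq1, Kcnn4, Kcnk1 and Kcnk5.

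Of 25 calcium and sodium channel genes and other genes of excitability, 19 were measured. In ZsGreen-high cells 4 of 19 rose, a share near that of all genes, among them the mechanosensitive channel Piezo1 (1.06) and the T-type calcium channel Cacna1h (0.97), and Cacna1d fell by 1.66. Between ZsGreen-negative and Sca1- cells 4 were higher in Sca1- cells and none lower: Cacna1h (-1.09), the sodium channel Scn7a (-1.04), the purine receptor P2ry1 (-0.85) and Cacna1g (-0.81). P2ry1 acts upstream of Kcnn3 in interstitial cells of the gut, and both were higher in Sca1- cells.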

How the data were processed

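RNA of the 16 sorted samples was amplified and hybridized to Affymetrix arrays, 1 array per sample. Per the submitters' processing notes the software was Expression Console 1.1. How probes were summarized, corrected for background and normalized is not given in the sources used here. What the authors deposited is a standardized score for each of 45141 probe sets, with mean 0 over the 16 arrays. The tests were planned for log2 signals, so whole-number signals whose log values give these scores were searched for (whole within 0.0001). All 45141 were recovered, from 58 to 155937, and the search was tested on simulated data, where 1000 of 1000 probe sets were recovered exactly.

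Differences in log2 signal were fitted with limma 3.58.1 (R 4.3.3) over all 45037 non-control probe sets and 16 arrays, with 1 mean per population, two-sided tests, Benjamini-Hochberg adjustment and a threshold of 0.05. Recovery ran with numba 0.67.0, and tables and figures were made with matplotlib 3.10.9, pandas 2.3.3 and numpy 2.4.6 under Python 3.11.15. On data simulated for ZsGreen-high against ZsGreen-negative cells (45037 probe sets), 91 of 100 changes of 1 log2 unit and 97 of 100 of 2 were called, with 7 unchanged probe sets called. The simulated noise was independent between arrays and few probe sets were changed. It therefore does not cover same-mouse correlation, scaling or a comparison with many changes. Within a population, arrays correlated at 0.968 to 0.994.

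A probe set was named where GEO's platform table gives 1 symbol (28898, against 551 with several and 15588 with none). All 141 members matched RefSeq by gene identifier, and 2 probe sets naming Kcnj15 with another gene were left out. A population whose 4 arrays all lie at or below the highest nonspecific control has only a bound, given as "at least". Genes named are the called members above background, up to 12 by size in each of the 4 comparisons of neighbouring gates or reporter levels and 6 in each of the 2 secondary ones, and from each family the member with the highest mean and that with the widest range of population means. Up to 3 called genes of each of 3 pathway lists are named too. Members, lists and rules were chosen with earlier results of these data known. The mouse label pairs the arrays: deviations of same-mouse arrays correlated at 0.241 on average (mice 1 to 4: 0.466, -0.0594, 0.447 and 0.109), against -0.0807 for different mice. The block and the other settings are alternatives.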

Additional observations from a re-analysis of the deposited data

Results flagged for a closer look

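The following values stood apart from the other 3 arrays of their population, by a gap over range above Dixon's critical value. A total of 96 groups of 4 arrays were examined, in which chance gives about 1 group in 20. In Sca1- cells the array of mouse 1 was the lowest for Kcne3 (signal 2415, gap over range 0.936) and Kcnk1 (2165, 0.893). It was the highest for Kcnj10 (1103, 0.874) and Kcnmb1 (1656, 0.857). In ZsGreen-dim cells the array of mouse 2 was the highest for Kcnh2 (372, 0.888). On the Sca1- array of mouse 1 the epithelial list mean was also the lowest of its population (13.34). The smooth muscle, pericyte and glial list means were the highest (12.34, 11.27 and 9.57). So were those of the pan-fibroblast, endothelial and PDGFRA-high subepithelial fibroblast lists (14.13, 10.96 and 10.32). Those of interstitial cells of Cajal and leukocytes were not. The part of these cell types in the values above was not tested.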

How the results depend on the processing

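Counts of potassium channel genes that passed depended on the scaling most in the comparisons with ZsGreen-high cells. Scaled to the hybridization controls, 54 passed for ZsGreen-high against ZsGreen-negative cells, 1 for ZsGreen-dim against ZsGreen-negative cells, 30 for ZsGreen-high against ZsGreen-dim cells, 56 for ZsGreen-high against Sca1- cells and 47 in the F test. Of all 17097 genes 11356, 576, 7385, 12412 and 10452 passed, in the same order. With the mouse as a replicate block, 8 passed for ZsGreen-dim against ZsGreen-negative cells and 6 for ZsGreen-high against ZsGreen-dim cells (beside 2187 and 1105 of all 17097 genes). Beside the members named above for the block, it changed no other call of a potassium channel gene. Fitted without mouse 2, an alternative chosen after seeing the data, the block gave 2 and 4 in these comparisons (beside 585 and 839 of all genes). An offset of 100 before the log left 0 for ZsGreen-high against ZsGreen-dim cells (11 at an unadjusted p under 0.05), beside 136 of all 17097 genes. The scores as deposited left 0 for ZsGreen-high against ZsGreen-dim, ZsGreen-negative against Sca1- and ZsGreen-dim against Sca1- cells (8, 22 and 26 at an unadjusted p under 0.05), where 0 of all genes passed too. Fitted on only the 2 populations compared, the counts were 3, 5 and 11 in these comparisons, beside 300, 102 and 1197 of all 17097 genes. These fits have fewer arrays, and the F test has no such fit. With the mean of the epithelial list in the fit, 0 passed for ZsGreen-high against ZsGreen-negative cells and 0 against ZsGreen-dim cells (7 and 6 at an unadjusted p under 0.05), 5 against Sca1- cells and 14 in the F test. Of all 17097 genes 1, 0, 170 and 870 passed, in the same order. Against ZsGreen-negative cells that covariate turned Kcnk1 to 0.24, Kcnq1 to 0.38 and Kcne4 to -0.25, and against Sca1- cells it turned Kcnk1 to 0.65 and Kcnq1 to 0.39. The cause of these turns was not tested.

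Leaving out 1 mouse gave 9 to 15 for ZsGreen-high against ZsGreen-negative, 0 to 7 for ZsGreen-dim against ZsGreen-negative, 0 to 1 for ZsGreen-high against ZsGreen-dim, 6 to 10 for ZsGreen-negative against Sca1-, 18 to 25 for ZsGreen-high against Sca1- and 10 to 20 for ZsGreen-dim against Sca1- cells, and 17 to 26 in the F test. Leaving out 1 array gave, in the same order, 12 to 20, 0 to 4, 0 to 3, 9 to 11, 22 to 26, 14 to 21 and 23 to 27. The 7 came without mouse 1, the 9 without mouse 2, the 6 and the 10 without mouse 4, and the F test's 17 without mouse 2 or without mouse 4. Over all 17097 genes, leaving out 1 mouse gave 2425 to 5053, 8 to 1362, 0 to 409 and 123 to 574, in the same order. The rest were 3657 to 5948, 601 to 3013 and 2353 to 5237, and the 1362 also came without mouse 1. Leaving out 1 array gave 3902 to 5530, 29 to 1185, 0 to 603 and 262 to 744 of all genes. The rest were 5010 to 6705, 1339 to 3875 and 4326 to 5999. Of 34 differences of named genes, the direction and call held for 34 under the block, under 1 probe set per gene, with dim probe sets left out and with the mean of a gene's probe sets, for 33 under the hybridization controls and under the offset, for 29 with only the 2 populations, for 18 under the covariate and for 16 of the scores. Signals near background limit what can be seen: 12 members were at or below it on every array, and 2 ng of amplified RNA and 4 arrays per population limit the precision.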
